A study of Mus musculus with 12 samples.

Results

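In wild-type (WT) mice with acute dextran sulfate sodium colitis, libraries labelled LPMC were compared with libraries of full colon tissue. All 3 LPMC WT and all 3 colon WT libraries of the series were taken, 6 of 12 libraries, and the 6 libraries of Gpr15l-/- mice were not used. Both groups carry the WT genotype and the same treatment, Dextran Sulfate Sodium (DSS), a polymer that injures the colonic epithelium when mice drink it, so no untreated gut is part of the comparison. LPMC commonly stands for lamina propria mononuclear cells. The labels used here name no age and no isolation or sorting steps. They do not say whether replicates are different mice. A p-value sets the difference between groups against the spread of the 3 libraries within each group. That spread may be technical in part and need not be one between mice.

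The lamina propria is the connective tissue under the gut epithelium, and it holds T cells, plasma cells, macrophages, dendritic cells and mast cells among fibroblasts and vessels. Cells are usually released from it after the epithelium has been stripped and the matrix digested, and immune cells are then enriched. A full colon also holds the epithelium with its goblet, absorptive and stem cells, the muscle coat and the enteric nervous system. In DSS colitis the epithelium is damaged and repaired while leukocytes enter the wall.

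Sequencing depth ran from 45.4 to 85.9 M counts (M, 1e6) in the colon libraries and from 50.2 to 102.8 M in the LPMC-labelled ones. Levels are counts per 1000000 counts of the library (CPM), scaled by TMM factors and given in the order of replicates 1, 2 and 3. The groups stood apart on the axis of largest variance in log2 CPM (65.4%, with 12.7% on the next). Colon replicate 1 lay nearer to the LPMC-labelled libraries on it than the other colon libraries did.

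The label LPMC was checked against cell type markers, and the data went against it in part. The LPMC-labelled libraries held abundant epithelial transcripts. The 18 epithelial markers summed to 31040 to 34130 CPM in colon and still to 16770 to 20020 CPM in the LPMC-labelled libraries. Epcam, a surface protein of epithelial cells, was at 2038, 2121 and 1978 CPM in colon and at 945, 1148 and 1367 CPM in the LPMC-labelled libraries (log2 fold change -0.83, SE 0.16, adjusted p = 0.0101 by edgeR). Its level was thus lower in the LPMC-labelled libraries without overlap, but far from 0. Cdh1, the cadherin of epithelial junctions, read 1540, 1308 and 1260 CPM in colon against 1004, 1189 and 1271 CPM (log2 fold change -0.25, SE 0.14, adjusted p = 0.23), and the groups overlapped.

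The 20 pan-leukocyte markers summed to 1708, 456 and 224 CPM in colon and to 1799, 1232 and 1005 CPM in the LPMC-labelled libraries. Ptprc, the CD45 phosphatase of all white blood cells, was at 124, 20.3 and 8.52 CPM in colon against 178, 116 and 125 CPM (log2 fold change 1.45, SE 0.91, adjusted p = 0.26). Colon replicate 1 overlapped the LPMC-labelled libraries and the other colon libraries lay below them. Scaled per kilobase of exon, mean Epcam was 525 and mean Ptprc 7.62 RPKM in the LPMC-labelled libraries, against 932 and 2.78 RPKM in colon. No marker of the pan-leukocyte or epithelial list was at 0 in either group. Summed epithelial markers were lower, and summed fibroblast and vessel markers higher, in every LPMC-labelled library than in any colon library. Their part in the other differences given here was not tested. In bulk RNA, fewer cells of a type and less RNA per cell cannot be told apart.

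**Figure D1:**
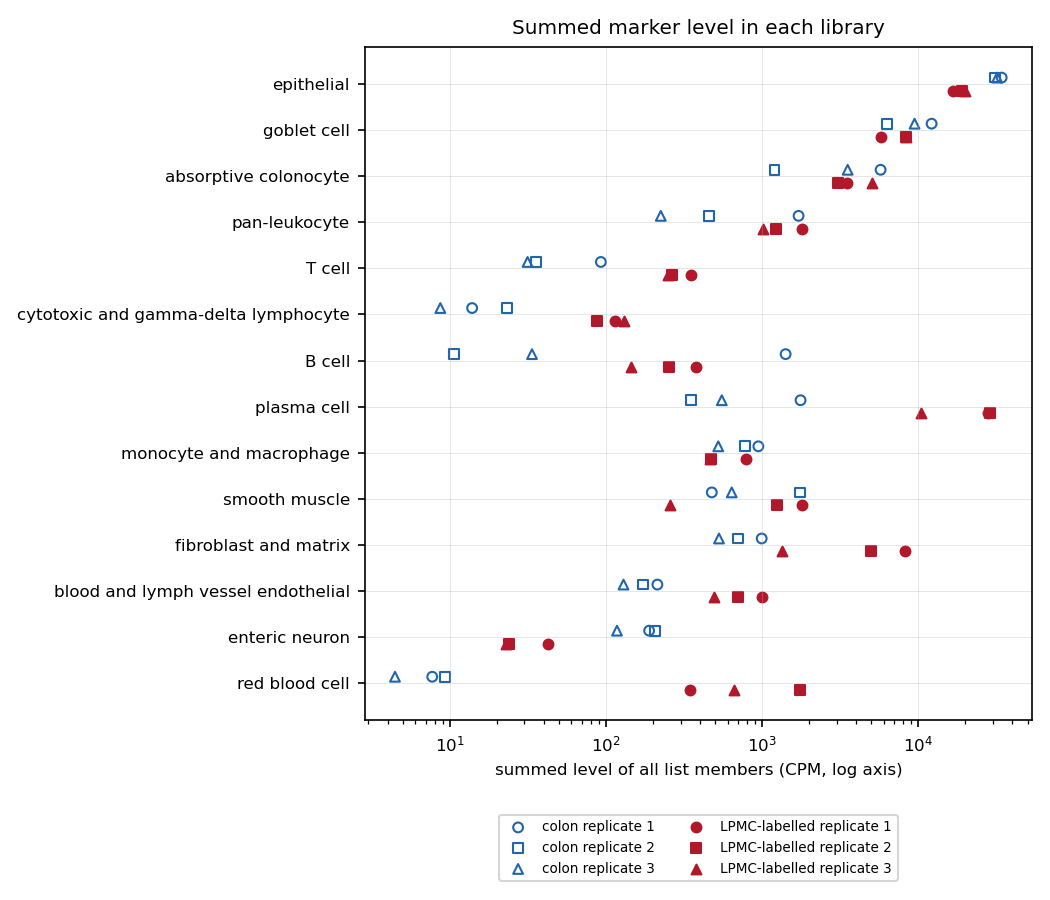
Summed level (CPM, log axis) of all members of 14 marker lists in each of the 6 libraries, with open blue symbols for colon, filled red symbols for LPMC-labelled libraries and the symbol shape giving the replicate. Epithelial sums are at 16770 CPM or more in every library, colon replicate 1 stands above the other colon libraries for B cell and pan-leukocyte lists, and the plasma cell, fibroblast, vessel and red blood cell sums are higher in all 3 LPMC-labelled libraries.

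About 33.1% of the genes tested differed between the materials, about as many in each direction. Of 19297 genes tested, 6393 were called (edgeR adjusted p below 0.05), which is 33.1%. In the LPMC-labelled libraries 3228 genes were higher (16.7%), and 3165 were higher in colon (16.4%). For 51.6% of the genes tested the groups did not overlap, 26.2% with the LPMC-labelled libraries higher and 25.4% with colon higher. The median log2 fold change over all genes, always taken as LPMC-labelled minus colon, was -0.01. Differences toward the LPMC-labelled libraries were larger, with a median size of 1.62 on the log2 scale and 228 genes at 32-fold or more, against 1.20 and 103 genes toward colon. Part of the 228 genes are variable segments of antibody genes, of which 128 of 170 tested were called (median 5.74). Genes higher in the LPMC-labelled libraries took 8.6 to 9.1% of the CPM of the genes tested in colon and 25.1 to 27.5% in the LPMC-labelled libraries. Genes higher in colon took 41.9 to 43.3% and 20.5 to 21.6%. The number called fell from 6393 to 4179 without colon replicate 3, to 3856 without LPMC replicate 1 and to 3436 without LPMC replicate 2, and 1566 genes higher in the LPMC-labelled libraries and 1453 higher in colon were called in each of the 6 fits without 1 library.

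The classes of genes were unevenly spread over the directions. Antigen receptor genes were called almost only toward the LPMC-labelled libraries, 170 against 1, and 128 of 170 variable segments of antibody genes were among them (median log2 fold change 5.74). Long noncoding genes were called mostly toward colon, 379 against 94, and small nucleolar RNAs likewise, 21 against 2 of 65 tested. Of 641 long intergenic genes tested 159 were higher in colon and 40 in the LPMC-labelled libraries, and of 713 antisense genes 138 and 31. Among all genes tested the shares were 16.4% and 16.7%. In these 2 classes calls toward the LPMC-labelled libraries were scarce, more than calls toward colon were frequent. Neat1, a nuclear long noncoding RNA chosen here after its values were seen, was at 1645, 1236 and 1227 CPM in colon and at 140.9, 105.5 and 133.0 CPM in the LPMC-labelled libraries.

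**Figure D2:**
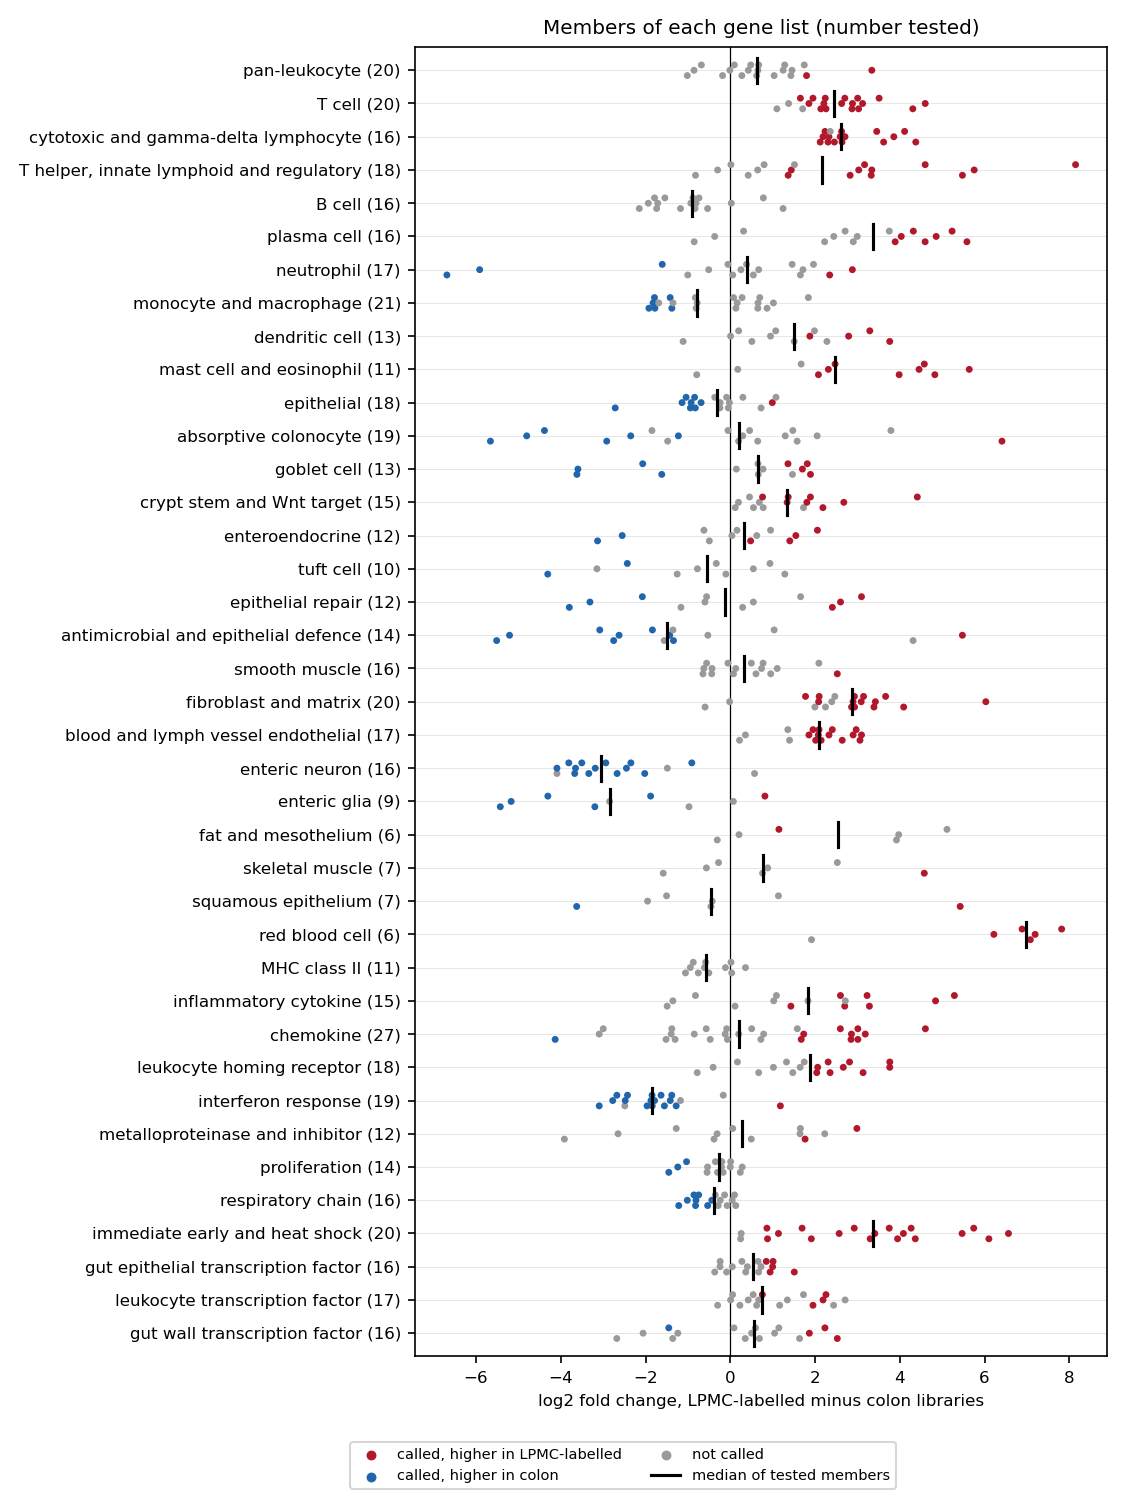
Log2 fold change (LPMC-labelled minus colon) of every tested member of 39 gene lists, 1 point per gene, red for genes called higher in the LPMC-labelled libraries, blue for genes called higher in colon and grey for genes not called, with a black bar at the list's median (Il13, at 8.14, is a fitted value against 0 counts in colon). T cell, plasma cell, fibroblast, vessel, red blood cell and immediate early lists lie to the right of 0, and enteric neuron, glia and interferon lists to the left.

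The genes with the largest differences toward the LPMC-labelled libraries were of several unrelated kinds. They included red blood cell genes, immediate early and heat shock genes, and genes of epithelial metabolism. Hbb-bs, an adult beta globin, was at 4.08, 5.48 and 2.34 CPM in colon and at 214, 1074 and 442 CPM in the LPMC-labelled libraries (log2 fold change 7.19, SE 0.78, adjusted p = 0.00192). The other globins Hba-a1 (6.88) and Hbb-bt (7.08) and Alas2, the erythroid enzyme that starts heme synthesis (7.82), differed by similar log2 fold changes. LPMC replicate 2 was highest for all of these and replicate 1 lowest. Of 7 red blood cell genes 6 were tested, 5 were higher in the LPMC-labelled libraries and none in colon, and the list's sum ran from 345 to 1757 CPM there against 4.44 to 9.28 CPM. The globin copies are near-identical in sequence, so counts may be split between them.

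Nr4a1, an immediate early nuclear receptor, was between 7.38 and 15.6 CPM in the colon libraries and at 846, 921 and 838 CPM in the LPMC-labelled libraries (log2 fold change 6.10, SE 0.34, adjusted p = 0.000395). Ugt2b5, which conjugates lipophilic compounds to glucuronic acid, was at 0.0724, 0.0461 and 0.113 CPM in colon against 20.3, 18.4 and 26.4 CPM (log2 fold change 8.06, SE 0.40). It was close to 0 in every colon library. A4gnt, which caps gland mucins with N-acetylglucosamine, differed by 7.54, the zinc finger factor Osr2 by 7.42, and Depp1 by 7.23 on the log2 scale. All of these were called in each of the 6 fits without 1 library.

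Toward colon the 12 genes with the largest differences were led by Gml, of the Ly6 family (-8.59 on the log2 scale), Clca4c-ps (-8.35) and Ly6g (-6.69), described with the neutrophil genes. Clca4b, a secreted metalloprotease-like protein of the upper crypt, was at 2219, 1999 and 2605 CPM in colon and at 66.5, 55.8 and 65.0 CPM in the LPMC-labelled libraries (log2 fold change -5.19, SE 0.17, adjusted p = 0.000177). Saa1, an acute phase protein, was at 1626, 946 and 1801 CPM in colon against 36.0, 24.3 and 35.5 CPM (log2 fold change -5.51, SE 0.33, adjusted p = 0.000443). Both were more than 10 times higher in the lowest colon library than in the highest LPMC-labelled one. Slc15a1, the proton-coupled peptide transporter (-6.00), Atp12a, the nongastric proton pump (-6.70), the serine protease gene Prss22 (-6.40), Trim10 (-6.14), Ltf, which encodes lactoferrin (-5.91), Ifit1bl1, of the interferon-induced Ifit family (-4.86), and the cornified envelope gene Sprr2a3 (-4.86) followed on the log2 scale. Clca4c-ps is annotated as a pseudogene, and Sprr2a3 has near-identical copies beside it, so their counts are uncertain.

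**Figure D3:**
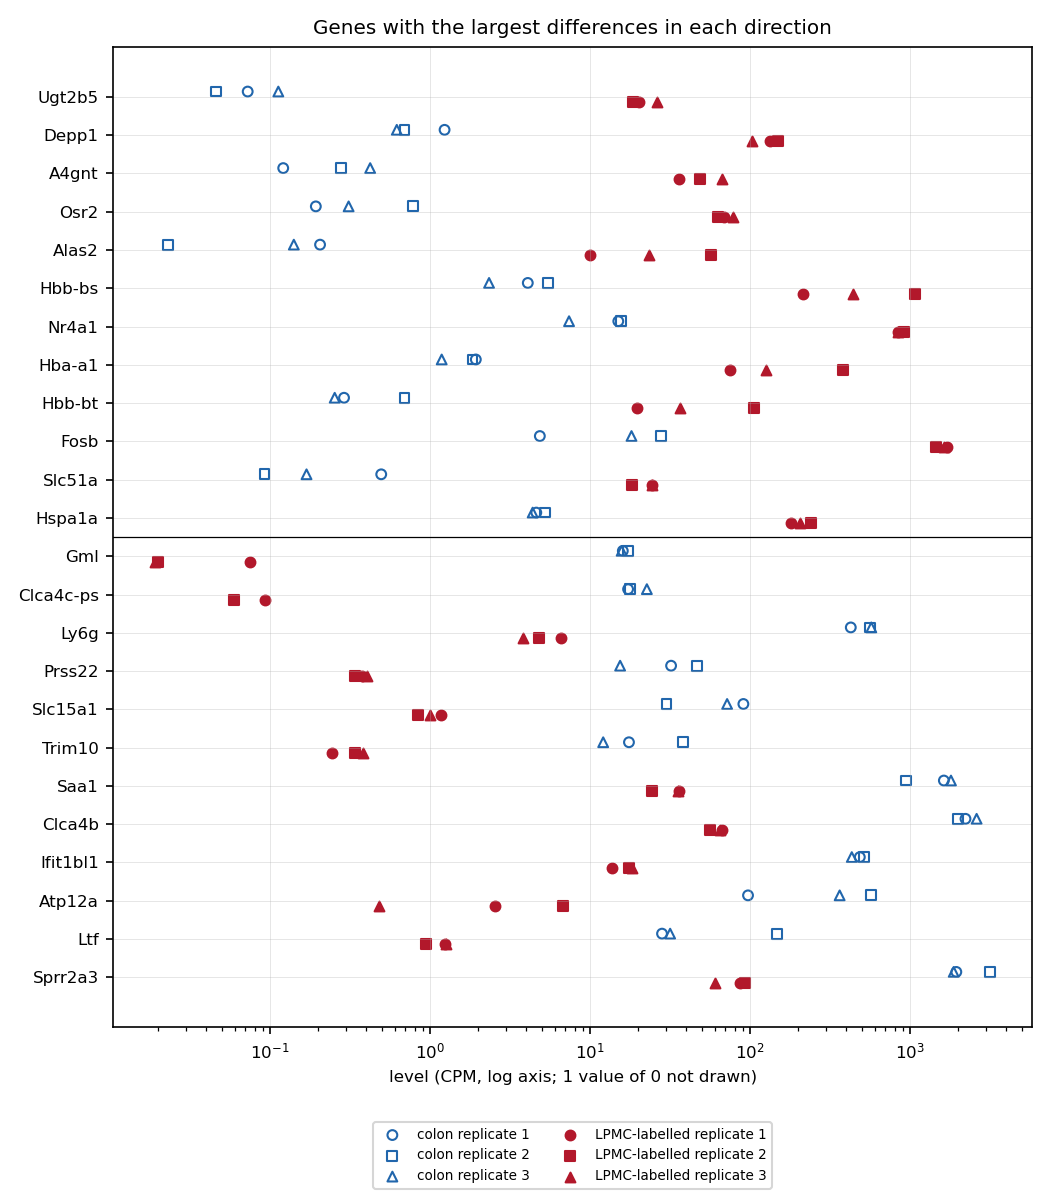
Level (CPM, log axis) in each library of the 12 genes with the largest differences toward the LPMC-labelled libraries (above the line) and toward colon (below the line), by log2 fold change minus 2 standard errors. For all 24 genes the red and blue symbols do not overlap, and LPMC replicate 3 is at 0 for Clca4c-ps and not drawn.

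Genes of T cells were higher in the LPMC-labelled libraries. Of 20 T cell genes 17 were higher there and none in colon, with a median log2 fold change of 2.44. Cd3g, a signalling chain of the T cell receptor, was at 2.79, 1.29 and 1.25 CPM in colon and at 12.2, 9.40 and 13.2 CPM in the LPMC-labelled libraries (log2 fold change 2.70, SE 0.40, adjusted p = 0.00459). The costimulatory receptor Cd28 was at 1.51, 0.875 and 0.591 CPM in colon against 23.9, 19.3 and 15.9 CPM (log2 fold change 4.30, SE 0.42, adjusted p = 0.00135). For both genes the groups did not overlap. Trac, the constant region of the alpha chain, differed by 2.63, Cd3e by 2.24 and the transcription factor Tcf7 by 2.26 on the log2 scale, all called. The list's sum was 31.4 to 92.6 CPM in colon and 249 to 352 CPM in the LPMC-labelled libraries.

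Cytotoxic and gamma-delta lymphocyte genes did likewise, 15 of 16 higher in the LPMC-labelled libraries and none in colon, with a median of 2.61. Fasl, the ligand that triggers death through Fas, was at 0.121, 0.0921 and 0.197 CPM in colon and at 2.86, 2.30 and 3.58 CPM in the LPMC-labelled libraries (log2 fold change 4.37, SE 0.44, adjusted p = 0.00146). The natural killer receptor Klrb1c (3.86), the factor Eomes (3.62) and the granule protein gene Nkg7 (2.59) were also called. The count of this list was 9 without LPMC replicate 1. Of 18 genes of T helper, innate lymphoid and regulatory cells, 11 were higher in the LPMC-labelled libraries and none in colon (median 2.17). The anti-inflammatory cytokine gene Il10 was at 0.314, 0.230 and 0.1406 CPM in colon against 16.3, 10.5 and 10.6 CPM (log2 fold change 5.75, SE 0.44, adjusted p = 0.000668). Ctla4, an inhibitory receptor of regulatory T cells, differed by 4.60. The type 2 cytokine gene Il5 was at 0.0362, 0 and 0 CPM in colon against 0.729, 0.875 and 0.534 CPM, and was called. Il13, of the same class, had 0 counts in each colon library, which allows up to 0.0691 CPM in a library (3 counts), and was at least 6.71-fold higher in the LPMC-labelled libraries. With Il13 at that bound the list's median was 2.13. The list's count was 7 without colon replicate 2, and 5 without LPMC replicate 1 or without replicate 2.

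B cell genes followed no such pattern. None of 16 was called, and the median log2 fold change was -0.91. Cd79a, part of the B cell receptor, was at 171, 0.461 and 2.80 CPM in colon and at 51.2, 36.8 and 16.1 CPM in the LPMC-labelled libraries. Colon replicate 1 stood far above all other libraries for this gene, and the other colon libraries stood below all LPMC-labelled ones. Without colon replicate 1, 11 of the 16 genes were called higher in the LPMC-labelled libraries and the median was 3.79.

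Genes of plasma cells, the antibody-secreting descendants of B cells, were higher in the LPMC-labelled libraries in 7 of 16 cases and in colon in none (median 3.37). Igha, the constant region of IgA, was at 610, 181 and 303 CPM in colon and at 17110, 17760 and 6192 CPM in the LPMC-labelled libraries (log2 fold change 5.23, SE 0.65, adjusted p = 0.00284). Jchain, which joins IgA into dimers, was at 67.6, 22.3 and 37.5 CPM against 2445, 2516 and 1144 CPM (log2 fold change 5.58, SE 0.56, adjusted p = 0.00158). LPMC replicate 3 was lowest of its group for both and still far above every colon library. The light chain gene Iglc1 (4.03) and Derl3, of protein export from the endoplasmic reticulum (3.89), were called as well. Ighm, the constant region of IgM, ranged from 3.39 to 392 CPM in colon and from 45.4 to 114 CPM in the LPMC-labelled libraries and was not called (adjusted p = 0.696). Without colon replicate 1 the count rose to 12.

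Of the 20 pan-leukocyte genes themselves, Cytip and Fyb were called, both higher in the LPMC-labelled libraries, and none was higher in colon (median 0.64). Genes higher in the LPMC-labelled libraries made up 16.7% of all genes tested, a larger share than in this list. Toward colon the share was 16.4%. Cytip, an adaptor that regulates leukocyte adhesion, was at 31.4, 6.82 and 3.09 CPM in colon and at 187, 133 and 98.6 CPM in the LPMC-labelled libraries (log2 fold change 3.34, SE 0.86, adjusted p = 0.0282). Fyb, an adaptor of T cell receptor signalling, was at 9.64, 6.59 and 2.98 CPM against 29.9, 18.3 and 18.6 CPM (log2 fold change 1.80, SE 0.45). With the replicate number as a block 6 genes of the list were called, and without colon replicate 1 there were 13, all higher in the LPMC-labelled libraries. Without colon replicate 2, LPMC replicate 1 or LPMC replicate 2 none was called, so Cytip and Fyb each passed in 3 of the 6 fits without 1 library. Colon replicate 1 was thus the highest colon library for both the B cell and the pan-leukocyte list.

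Monocyte and macrophage genes were called toward colon. Of 21 monocyte and macrophage genes 6 were higher in colon and none in the LPMC-labelled libraries, with a median of -0.78. C1qc, a chain of complement C1q made by tissue macrophages, was at 39.6, 48.4 and 25.03 CPM in colon and at 16.9, 9.13 and 6.63 CPM in the LPMC-labelled libraries (log2 fold change -1.79, SE 0.41, adjusted p = 0.0176). Mrc1, the mannose receptor of resident macrophages, was at 4.75, 14.9 and 6.61 CPM against 3.12, 2.33 and 1.94 CPM (log2 fold change -1.82, SE 0.48, adjusted p = 0.0284). C1qa (-1.92) and Ms4a7 (-1.38) were called too. The general markers were not: Csf1r, the receptor for the macrophage growth factor, was at 38.9, 36.9 and 15.4 CPM against 74.1, 38.6 and 34.8 CPM (adjusted p = 0.253), and Adgre1, which encodes F4/80, had an adjusted p of 0.128. The count of 6 fell to 2 without colon replicate 2, to 3 without LPMC replicate 3 and to 1 without LPMC replicate 2. Ly6c2, a marker of inflammatory monocytes picked after its values were seen, was at 10.5, 10.5 and 1.87 CPM in colon against 40.6, 21.9 and 19.2 CPM (log2 fold change 1.84, adjusted p = 0.0721, and 0.0321 with the replicate number as a block). DESeq2 called 2 genes of the list higher in the LPMC-labelled libraries.

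Promoters of the pan-leukocyte and macrophage genes were searched for GAGGAAG on both strands (CTTCCTC on the other strand), the core of sites that bind Spi1, the master regulator of myeloid and B cells. Windows of 250 bases before to 50 after the RefSeq start (GRCm38.p6) were found for 15 of 20 pan-leukocyte and 16 of 21 macrophage genes, and 6 and 5 of these genes hold the motif, among them 1 of 2 and 2 of 5 called genes. Among all genes with a window 15.4% hold it. Cytip is the called pan-leukocyte gene with a match, and C1qc and Mrc1 are the called macrophage genes with one, so these 3 windows are shown 5′ to 3′ on the gene's strand, with matches in capitals. Their positions are chr2:58160073-58160372 (minus strand), chr4:136892865-136893164 (minus strand) and chr2:14229164-14229463 (plus strand). The Cytip window also holds the interferon element described further on. A match is a run of letters and no evidence of binding.
Cytip: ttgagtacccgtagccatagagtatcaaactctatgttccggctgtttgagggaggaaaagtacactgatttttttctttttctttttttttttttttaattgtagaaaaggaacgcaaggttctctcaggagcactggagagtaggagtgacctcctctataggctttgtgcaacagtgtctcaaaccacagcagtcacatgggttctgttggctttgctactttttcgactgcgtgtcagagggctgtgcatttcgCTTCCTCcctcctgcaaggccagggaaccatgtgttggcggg
C1qc: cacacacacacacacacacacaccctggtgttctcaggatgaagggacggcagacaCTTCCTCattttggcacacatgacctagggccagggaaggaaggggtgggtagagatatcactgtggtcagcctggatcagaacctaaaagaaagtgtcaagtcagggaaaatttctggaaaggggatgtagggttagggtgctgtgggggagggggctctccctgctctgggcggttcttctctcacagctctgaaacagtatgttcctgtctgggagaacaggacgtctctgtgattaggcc
Mrc1: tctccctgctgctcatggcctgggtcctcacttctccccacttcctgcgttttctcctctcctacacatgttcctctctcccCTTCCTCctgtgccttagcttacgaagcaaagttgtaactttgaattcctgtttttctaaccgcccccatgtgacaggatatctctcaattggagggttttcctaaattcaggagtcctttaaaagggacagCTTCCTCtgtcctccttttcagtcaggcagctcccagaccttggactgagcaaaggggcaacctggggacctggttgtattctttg

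Of these genes with the same letters, Cytip was higher in the LPMC-labelled libraries and C1qc and Mrc1 in colon. None of the called smooth muscle genes had a promoter with a CArG box to show, since Myocd, the one called, had no window in the table.

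Other myeloid lists were mixed. Of 13 dendritic cell genes 4 were higher in the LPMC-labelled libraries and none in colon (median 1.51), among them Siglech of plasmacytoid cells (3.29), the factor Zbtb46 (1.88) and the migration receptor Ccr7 (3.76). This count fell to 2 without colon replicate 2, LPMC replicate 1 or LPMC replicate 2. Flt3, their growth factor receptor, was at 3.04, 0.875 and 1.01 CPM in colon against 9.70, 7.65 and 2.23 CPM and was not called (adjusted p = 0.0704, and 0.0328 with the replicate number as a block). Of 11 tested mast cell and eosinophil genes 8 were higher in the LPMC-labelled libraries and none in colon (median 2.47), among them Cpa3, the mast cell carboxypeptidase (0, 0.0921 and 0.0281 CPM in colon against 2.28, 1.52 and 1.45 CPM) and the mucosal protease gene Mcpt1 (log2 fold change 2.47).

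Neutrophil genes split. Of 17 genes 3 were higher in colon and 2 in the LPMC-labelled libraries (median 0.38). Among all genes tested 16.4% were higher in colon and 16.7% in the LPMC-labelled libraries. Ly6g, the usual surface marker of mouse neutrophils, was at 426, 565 and 572 CPM in colon and at 6.53, 4.76 and 3.83 CPM in the LPMC-labelled libraries (log2 fold change -6.69, SE 0.28, adjusted p = 0.000311). Csf3r, the receptor for the neutrophil growth factor, was at 8.53, 16.3 and 5.08 CPM in colon against 16.6, 9.01 and 9.87 CPM (adjusted p = 0.706), and the groups overlapped. The calgranulin gene S100a8 was higher in colon (-1.61, adjusted p = 0.0432, and 0.122 with the replicate number as a block), while the decoy receptor gene Il1r2 (2.88) and the activating receptor gene Trem1 (2.34) were higher in the LPMC-labelled libraries. When any one of the LPMC-labelled libraries was left out, 1 gene was called toward that group in place of 2, and without colon replicate 3 the median was -0.06.

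Ly6g lies among genes of its family, of which several were also higher in colon. Between Ly6d and Ly6h on chromosome 15 (GRCm38, 74762056 to 75567255), 12 of 21 tested genes were higher in colon and none in the LPMC-labelled libraries, a stretch chosen after its values were seen. Among its 12 tested Ly6 and Gml genes 7 were higher in colon and none in the LPMC-labelled libraries, and Ly6c2, given above, lay toward the LPMC-labelled libraries. Ly6a, a surface protein of regenerating epithelium, was at 2689, 4291 and 2867 CPM in colon and at 376, 366 and 249 CPM in the LPMC-labelled libraries (log2 fold change -3.31, SE 0.26, adjusted p = 0.000789). Ly6c1 was at 449, 1159 and 611 CPM against 105, 77.6 and 53.9 CPM, and Gml2 at 9.42, 8.20 and 9.70 CPM against 0.131, 0.0596 and 0.0762 CPM. No LPMC-labelled library reached the level of any colon library for these genes.

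The ligand that the series deletes was measured in both materials. Gpr15l, listed as 2610528A11Rik, encodes a secreted epithelial ligand. It was at 970, 360 and 603 CPM in colon and at 286, 322 and 355 CPM in the LPMC-labelled libraries (log2 fold change -1.01, SE 0.34, adjusted p = 0.0598). The groups did not overlap, but the test was not passed. Gpr15, its receptor on T cells that home to the colon, was at 0.483, 0.184 and 0.169 CPM in colon and at 1.92, 1.42 and 1.01 CPM in the LPMC-labelled libraries (log2 fold change 2.35, SE 0.55, adjusted p = 0.0193). It was called in 2 of the 6 fits without 1 library. Of 18 leukocyte homing receptor genes 9 were higher in the LPMC-labelled libraries and none in colon (median 1.89). Cxcr6 was at 0.917, 0.553 and 0.506 CPM in colon against 9.94, 8.22 and 8.82 CPM (log2 fold change 3.76, SE 0.35, adjusted p = 0.00112). The small intestinal receptor gene Ccr9 (3.13) and Itgae, the integrin that binds epithelial cadherin (2.81), were called as well. The list's count ranged from 4 (without colon replicate 2, LPMC replicate 1 or LPMC replicate 2) to 14 (without colon replicate 1).

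Epithelial lists differed in direction. General epithelial genes were called mainly toward colon, crypt base genes only toward the LPMC-labelled libraries, and absorptive and goblet cell genes in both directions. Of 18 general epithelial genes 8 were higher in colon, 9 were not called, and Grhl2, a junction-controlling factor, was higher in the LPMC-labelled libraries (0.99). Krt20, the keratin of surface cells, was at 2740, 2085 and 1915 CPM in colon and at 344, 253 and 429 CPM in the LPMC-labelled libraries (log2 fold change -2.72, SE 0.25, adjusted p = 0.0011). The log2 fold changes of Krt8 (-0.92), Krt19 (-1.04) and the claudin gene Cldn7 (-1.14) were smaller. The median of the list was -0.31.

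Of 19 absorptive colonocyte genes 6 were higher in colon and 1, Slc51a, was higher in the LPMC-labelled libraries (median 0.19). Toward the LPMC-labelled libraries 5 were called without colon replicate 1, 3 by DESeq2 and 2 with the replicate block or without colon replicate 2, where the median was -0.32. Car1, a cytosolic carbonic anhydrase (2.05, adjusted p = 0.0665), and Cyp2c55, a cytochrome P450 (3.79, adjusted p = 0.0619, and 0.0468 with the block), did not overlap between groups and were higher in every LPMC-labelled library than in any colon library; both were picked after their values were seen. Car4, a membrane carbonic anhydrase, was at 1395, 519 and 1206 CPM in colon and at 45.7, 19.98 and 46.0 CPM in the LPMC-labelled libraries (log2 fold change -4.80, SE 0.53, adjusted p = 0.00193). Slc51a and Slc51b, the subunits of one bile acid exporter, differed in opposite directions. Slc51a was at 0.495, 0.0921 and 0.169 CPM in colon against 24.5, 18.2 and 24.4 CPM (log2 fold change 6.41), and Slc51b at 80.2, 80.8 and 74.7 CPM against 18.1, 11.7 and 16.4 CPM (log2 fold change -2.35). Ceacam20, a brush border adhesion protein, was higher in colon by -2.92. Muc3, a membrane mucin chosen after its values were seen, was at 4155, 1817 and 2666 CPM in colon against 225, 206 and 215 CPM.

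Goblet cell genes divided evenly, 4 of 13 higher in each direction (median 0.66). Zg16, a secreted lectin that binds bacteria, was at 3741, 1533 and 2873 CPM in colon and at 184, 294 and 185 CPM in the LPMC-labelled libraries (log2 fold change -3.62, SE 0.39, adjusted p = 0.0017). Spdef, the factor that drives goblet cell maturation, was at 38.9, 54.4 and 46.1 CPM in colon against 141.1, 201 and 175 CPM (log2 fold change 1.89, SE 0.19, adjusted p = 0.00145). The trefoil peptide gene Tff3 was higher in colon (-2.07) and Retnlb, a bactericidal resistin-like protein, in the LPMC-labelled libraries (1.81). With the replicate number as a block 2 goblet cell genes were called higher in colon in place of 4. Of 15 crypt stem and Wnt target genes 8 were higher in the LPMC-labelled libraries and none in colon (median 1.34, and 5 called without LPMC replicate 2). Lgr5, the marker of crypt base stem cells, was at 0.193, 0.230 and 0.999 CPM in colon against 6.18, 10.5 and 13.9 CPM (log2 fold change 4.41, SE 0.76, adjusted p = 0.00722). Sox9 (2.68), Smoc2 (2.18) and the Wnt feedback gene Axin2 (1.34) did the same. Smoc2 is also made by stromal cells. Of 12 enteroendocrine genes 4 were higher in the LPMC-labelled libraries (2 without colon replicate 3, LPMC replicate 2 or LPMC replicate 3), among them the granule protein gene Chgb (1.54), and 2 in colon, the hormone genes Pyy (-3.13) and Insl5 (-2.55, adjusted p = 0.0373, and 0.0831 with the block). Of 10 tested tuft cell genes 2 were higher in colon and none in the LPMC-labelled libraries, the actin regulator Avil (-2.43) and Chat, which makes acetylcholine. Of all genes tested 16.4% were higher in colon and 16.7% in the LPMC-labelled libraries. The colon counts of the enteroendocrine and tuft cell lists lay near the first share. Chat was at 0.374, 0.875 and 0.549 CPM in colon against 0.0747, 0 and 0 CPM (adjusted p = 0.0277, and 0.0548 with the block). The tuft cell count was 1 without colon replicate 2 or 3 or LPMC replicate 2 or 3, and 3 without LPMC replicate 1.

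Genes of epithelial defence were called mainly toward colon, and repair genes in both directions. Of 14 antimicrobial and epithelial defence genes 8 were higher in colon and 1 in the LPMC-labelled libraries (median -1.50). Lypd8, which keeps flagellated bacteria from the epithelium, was at 14610, 10910 and 14050 CPM in colon and at 1937, 1941 and 1993 CPM in the LPMC-labelled libraries (log2 fold change -2.75, SE 0.16, adjusted p = 0.000395). Saa2 (-5.21) and the oxidase gene Duox2 (-1.43) went the same way. Toward the LPMC-labelled libraries DESeq2 called 3 genes of the list, and 2 were called without colon replicate 1. None was called that way without colon replicate 3 or without any one of the LPMC-labelled libraries. In the primary test the exception was Reg3b, a bactericidal lectin. It was at 386, 7.92 and 17.7 CPM in colon and at 5201, 5623 and 7461 CPM in the LPMC-labelled libraries (log2 fold change 5.47, SE 1.56, adjusted p = 0.0376), and was called in 1 of the 6 fits without 1 library. Of 12 repair genes 3 were higher in each direction (median -0.13). Anxa8 was higher in colon (-3.80) beside Ly6a. Hbegf, a ligand of the epidermal growth factor receptor, was at 50.1, 80.6 and 59.1 CPM in colon against 462, 466 and 691 CPM (log2 fold change 3.09, SE 0.26, adjusted p = 0.000879), and the related ligand gene Areg differed by 2.60.

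Interferon-induced genes were higher in colon. Interferons bind their receptors on most cells and act through a complex that holds Stat2 and Irf9, which binds an element of paired GAAA runs in the promoters of antiviral genes. Of 19 interferon response genes 15 were higher in colon and 1, Rsad2, in the LPMC-labelled libraries, with a median of -1.84. Promoter windows were found for 15 of the 19 genes, and 11 of them hold its core (GAAA, then NN for any pair of bases, then GAAA) on either strand, while 3.99% of all 27025 genes with a window hold it. This motif was chosen after the values were seen, and matches are a description and not a site. The 3 called genes of lowest p with a match are shown because both directions are among them, with matches in capitals, 5′ to 3′ on the gene's strand. Their positions (GRCm38.p6) are chr5:120907476-120907775 (minus strand), chr12:26456403-26456702 (minus strand) and chr19:34640639-34640938 (plus strand).
Oas1a: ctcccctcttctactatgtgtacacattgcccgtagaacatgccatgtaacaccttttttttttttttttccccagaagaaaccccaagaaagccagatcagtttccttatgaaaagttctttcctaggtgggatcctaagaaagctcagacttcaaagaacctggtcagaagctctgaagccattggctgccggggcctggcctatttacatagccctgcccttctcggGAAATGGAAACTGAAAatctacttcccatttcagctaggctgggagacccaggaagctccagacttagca
Rsad2: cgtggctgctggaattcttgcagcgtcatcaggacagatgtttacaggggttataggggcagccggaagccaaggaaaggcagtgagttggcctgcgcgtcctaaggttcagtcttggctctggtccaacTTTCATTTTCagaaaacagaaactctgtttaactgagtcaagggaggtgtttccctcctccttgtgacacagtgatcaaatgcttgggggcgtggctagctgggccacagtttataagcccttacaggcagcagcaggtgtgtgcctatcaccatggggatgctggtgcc
Ifit1: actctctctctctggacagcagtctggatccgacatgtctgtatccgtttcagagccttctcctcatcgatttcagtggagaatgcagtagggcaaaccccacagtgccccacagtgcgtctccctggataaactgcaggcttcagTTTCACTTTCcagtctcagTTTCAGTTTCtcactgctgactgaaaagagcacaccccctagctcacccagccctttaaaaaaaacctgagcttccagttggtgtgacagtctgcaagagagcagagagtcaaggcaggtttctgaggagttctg

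Oas1a has a pair of overlapping matches just before the start, Ifit1 has a pair of separate ones and Rsad2 has 1 further upstream. Oas1a, which makes the activator of an antiviral ribonuclease, was at 120, 135 and 110 CPM in colon and at 33.6, 36.9 and 29.1 CPM in the LPMC-labelled libraries (log2 fold change -1.87, SE 0.15, adjusted p = 0.000751). Ifit1, which binds viral RNA, was at 74.3, 47.3 and 42.7 CPM against 16.8, 11.4 and 19.5 CPM (log2 fold change -1.79, SE 0.29). Rsad2, the antiviral enzyme viperin, was at 17.97, 15.75 and 17.61 CPM in colon and at 43.7, 32.5 and 40.1 CPM in the LPMC-labelled libraries (log2 fold change 1.18, SE 0.17, adjusted p = 0.00376). The genes shown thus differed in direction. Usp18 (-3.09), Oasl2 (-2.78) and the dynamin-like gene Mx1 (-2.43) had no overlap between groups. The count of 15 was 8 without LPMC replicate 2.

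**Figure D4:**
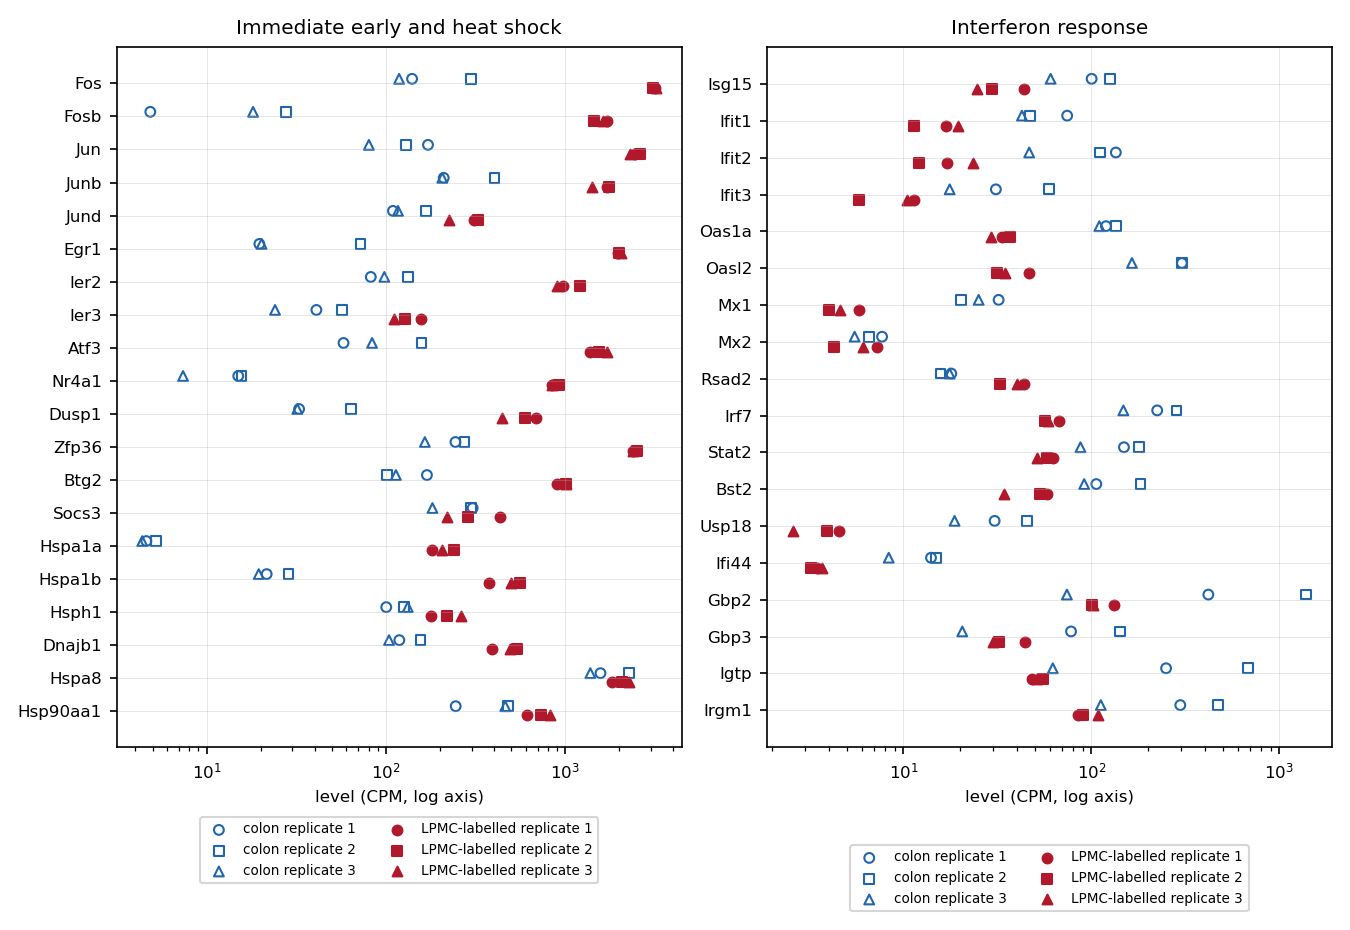
Level (CPM, log axis) in each library of the 20 immediate early and heat shock genes (left) and 18 of the 19 interferon response genes (right), with open blue symbols for colon and filled red symbols for LPMC-labelled libraries. On the left the red symbols lie above the blue ones except for Socs3 and Hspa8, and on the right they lie below except for Rsad2, Mx2, Gbp2 and Gbp3.

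Immediate early and heat shock genes were higher in the LPMC-labelled libraries almost without exception. These genes are transcribed within minutes of a stimulus or of protein damage. Of 20 genes 18 were higher in the LPMC-labelled libraries, none in colon, and Socs3 and Hspa8 were not called, with a median of 3.35. Their sum was 3364 to 5247 CPM in colon and 22590 to 23670 CPM in the LPMC-labelled libraries. Hspa1a, an inducible Hsp70 chaperone, was at 4.61, 5.21 and 4.37 CPM in colon and at 181, 240 and 206 CPM in the LPMC-labelled libraries (log2 fold change 5.47, SE 0.18, adjusted p = 0.000177). Fosb, a subunit of the factor AP-1, was at 4.85, 27.8 and 18.1 CPM against 1708, 1448 and 1630 CPM (log2 fold change 6.56, SE 0.70, adjusted p = 0.00183). The LPMC-labelled libraries lay close together for both genes. Fos was at 140, 299 and 118 CPM against 3164, 3066 and 3200 CPM, and Egr1 at 19.7, 72.1 and 20.2 CPM against 1961, 1988 and 2037 CPM; both were chosen after their values were seen. Zfp36, which destabilizes cytokine mRNAs (3.41), and Hspa1b (4.36) were called too. Hspa1a and Hspa1b are near-identical copies, and their split is uncertain.

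Cytokine and chemokine genes were called mainly toward the LPMC-labelled libraries. Of 15 inflammatory cytokine genes 7 were higher there and none in colon (median 1.83, and 4 called without LPMC replicate 1). Tnf was at 32.6, 56.0 and 20.9 CPM in colon and at 214, 257 and 240 CPM in the LPMC-labelled libraries (log2 fold change 2.70, SE 0.35, adjusted p = 0.00298). Il23a and Il12b, subunits of interleukins made by antigen-presenting cells, differed by 4.84 and 5.29. Il1b, chosen after its values were seen, was at 79.1, 59.5 and 9.52 CPM in colon against 666, 395 and 378 CPM. Of 27 tested chemokine genes 9 were higher in the LPMC-labelled libraries and 1 in colon (median 0.20, and 3 in colon without colon replicate 3). Cxcl1 was at 20.9, 19.3 and 13.6 CPM in colon against 140.8, 121.3 and 124.3 CPM (log2 fold change 2.85, SE 0.20, adjusted p = 0.000512), and Cxcl2 differed by 2.86. Cxcl12 of stromal cells differed by 3.01. Cxcl5, another neutrophil attractant, was at 168, 450 and 119 CPM in colon against 20.9, 17.7 and 3.24 CPM (log2 fold change -4.13, SE 0.85, adjusted p = 0.0134). Immediate early genes moved with these cytokine genes, and their part in that difference was not tested. None of 11 MHC class II genes was called (median -0.58, and 0.10 with the replicate block). Without colon replicate 1, 3 were called toward the LPMC-labelled libraries (median 0.36), and without colon replicate 3, 3 toward colon (median -1.05).

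Fibroblast and vessel genes were higher in the LPMC-labelled libraries. Of 20 fibroblast and matrix genes 14 were higher there and none in colon (median 2.88). Col14a1, a fibril-associated collagen, was at 0.989, 0.967 and 0.450 CPM in colon and at 92.6, 41.7 and 22.3 CPM in the LPMC-labelled libraries (log2 fold change 6.03, SE 0.67, adjusted p = 0.00197). Col1a1, the main fibrillar collagen, was at 91.7, 50.2 and 47.9 CPM against 897, 579 and 137 CPM (log2 fold change 3.09, SE 0.68, adjusted p = 0.0172). LPMC replicate 3 was lowest of its group for both and still above colon. The fibroblast markers Pdgfra (2.10) and Dcn (2.93) were called too. The count was 8 when colon replicate 2 or 3 or LPMC replicate 1 or 2 was left out, and 18 without LPMC replicate 3. Of 17 tested endothelial genes 13 were higher in the LPMC-labelled libraries and none in colon (median 2.09). Kdr, the main receptor for vascular endothelial growth factor, was at 6.90, 4.75 and 5.68 CPM in colon against 64.6, 47.9 and 31.9 CPM (log2 fold change 3.06, SE 0.31, adjusted p = 0.00143). Tek (3.09), Vwf (2.97), Cdh5 (2.40) and Pecam1 (2.01) had the same direction. Timp3, an inhibitor of matrix proteases, differed by 2.99.

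Smooth muscle genes were present in both materials and did not separate them. Of 16 genes only Myocd was called (2.52, adjusted p = 0.0391, and 0.10 with the block), higher in the LPMC-labelled libraries, and the median was 0.31. Myh11, the smooth muscle myosin heavy chain, was at 49.6, 299 and 107 CPM in colon and at 430, 273 and 56.0 CPM in the LPMC-labelled libraries (log2 fold change 0.74, SE 0.86, adjusted p = 0.541). Actg2 was at 15.1, 61.3 and 29.0 CPM against 125, 93.5 and 8.21 CPM (adjusted p = 0.397), and Des at 75.2, 365 and 73.4 CPM against 202, 157 and 19.6 CPM (adjusted p = 0.747). Within the LPMC-labelled group replicate 3 was lowest for all of these, and in colon replicate 2 was highest. Acta1, the skeletal actin gene, was the 1 called gene of 7 tested skeletal muscle genes (4.57).

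Genes of the enteric nervous system marked the full colon. Of 16 enteric neuron genes 13 were higher in colon and none in the LPMC-labelled libraries (median -3.06, and 7 called without LPMC replicate 2). Nos1, the neuronal nitric oxide synthase of inhibitory neurons, was at 17.0, 18.4 and 15.2 CPM in colon and at 1.55, 0.915 and 0.476 CPM in the LPMC-labelled libraries (log2 fold change -4.09, SE 0.46, adjusted p = 0.00193). The neuropeptide gene Vip was at 47.9, 43.6 and 22.9 CPM against 5.16, 2.03 and 0.915 CPM (log2 fold change -3.81, SE 0.68). The RNA-binding protein gene Elavl4 (-3.50) and Snap25 of synaptic vesicle release (-2.94) were called too. Of 9 tested glial genes 5 were higher in colon and 1 in the LPMC-labelled libraries (median -2.85). Sox10, the factor that specifies glia, was at 2.32, 6.63 and 2.05 CPM in colon against 0.112, 0.0596 and 0.0762 CPM (log2 fold change -5.43, SE 0.67, adjusted p = 0.00249). Gfap, an intermediate filament of glia, differed by -5.17. L1cam, which epithelial and other cells also make, was higher in the LPMC-labelled libraries (0.82).

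Median differences in cell cycle and respiratory chain genes were small. Of 14 proliferation genes Birc5 (-1.45), Rrm2 (-1.24) and Cdk1 (-1.03) were higher in colon and none in the LPMC-labelled libraries (median -0.26). Over all genes tested 16.4% were higher in colon. The list's sum was 991, 2125 and 1960 CPM in colon and 1254, 1489 and 1281 CPM in the LPMC-labelled libraries. Colon replicate 1 thus lay below every LPMC-labelled library, and the other colon libraries lay above them. The count was 8 without colon replicate 1, and 1 without colon replicate 3 or any one of the LPMC-labelled libraries. Of 16 respiratory chain genes 8 were higher in colon and none in the LPMC-labelled libraries (median -0.40). Cycs, cytochrome c, was at 308, 322 and 296 CPM in colon and at 126, 131.2 and 141.1 CPM in the LPMC-labelled libraries (log2 fold change -1.22, SE 0.11, adjusted p = 0.00106). Cox5a (-1.01) and Ndufb9 (-0.86) also passed.

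Transcription factor lists varied with the libraries used. Of 16 gut wall factors 3 were higher in the LPMC-labelled libraries, among them Tbx3 (1.86), and Hoxa5 was higher in colon (-1.45). The shares over all genes tested were 16.7% and 16.4%. The gut wall count toward the LPMC-labelled libraries thus lay near its share, and the colon count below it. Of 17 tested leukocyte factors 4 were higher in the LPMC-labelled libraries and none in colon, and of 16 gut epithelial factors 5 and none. The leukocyte count was 7 with the block, 9 by DESeq2, 10 without colon replicate 1 and 2 without LPMC replicate 2. With the block, of the gut wall factors 1 was called higher in the LPMC-labelled libraries and 1 in colon, as when colon replicate 2 or 3 or LPMC replicate 1 or 2 was left out.

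The direction of a gene moved with its exon length. This length covers all annotated exons of a gene and is not that of a single transcript. Protein-coding genes were put in 5 bins of exon length. In the shortest bin (66 to 2360 bases, 3091 genes) 354 genes were higher in the LPMC-labelled libraries and 843 in colon, with a median log2 fold change of -0.33. In the longest bin (7421 to 123179 bases, 3087 genes) 888 and 266 genes were called and the median was 0.34. After the median of its length bin was subtracted from each member, the respiratory chain median was -0.24 in place of -0.40, while the T cell median was 2.61, the fibroblast median 2.64, the enteric neuron median -2.99, the interferon median -1.68 and the immediate early median 3.57. Some medians moved further, from -0.78 to -0.47 for monocyte and macrophage genes and from 0.38 to 0.72 for neutrophil genes. The absorptive median went from 0.19 to 0.53, the chemokine median from 0.20 to 0.53 and the plasma cell median from 3.37 to 3.71. The epithelial median moved little, from -0.31 to -0.29, and the repair median changed sign, from -0.13 to 0.09. The part of exon length in the results for single genes was not tested.

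**Figure D5:**
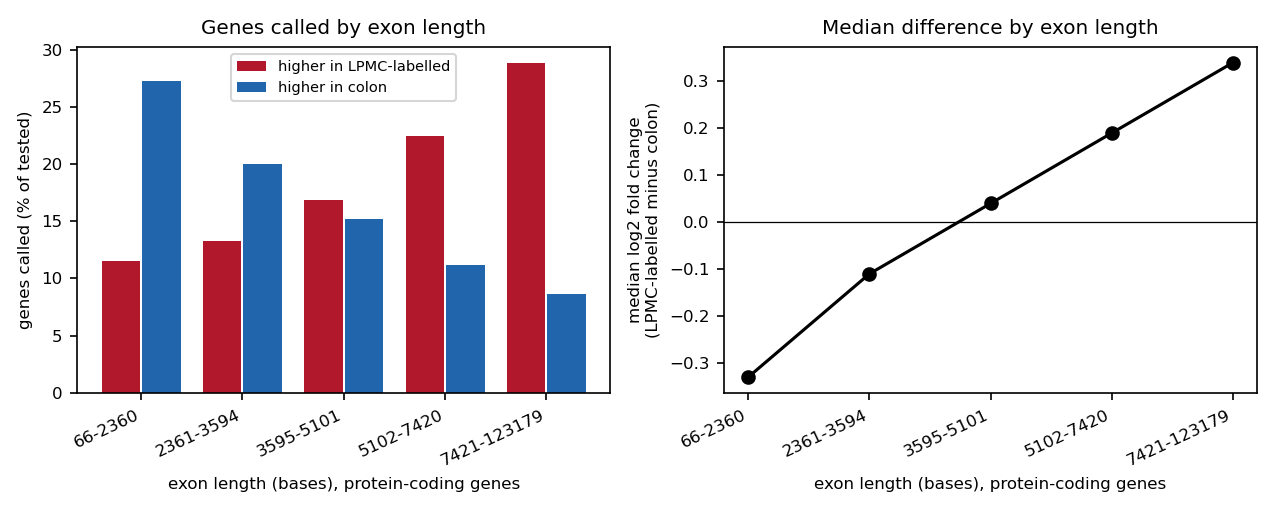
Left, percent of tested protein-coding genes called higher in the LPMC-labelled libraries (red) or in colon (blue) in 5 bins of exon length (bases). Right, the median log2 fold change (LPMC-labelled minus colon) per bin, which goes from -0.33 in the shortest to 0.34 in the longest genes.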

How the data were processed

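RNA of 3 LPMC WT and 3 colon WT libraries was compared. Per the labels' protocols, a strand-preserving TruSeq kit for mRNA was used, with sequencing on a HiSeq. STAR and GRCm38 (mm10) are named per the submitters' processing notes, while STAR's version and how reads were counted (tool, gene models, strandedness, filters) were not given in the sources used here. Whole-number read counts per Ensembl gene were deposited by the authors, without normalization. Of 54109 identifiers 54042 matched GENCODE M21 (GRCm38), which gave symbols, coordinates and exon lengths, 67 did not (at most 0.00291% of a library), and 0 rows named no gene. Even values were in excess (71.1 to 76.6% of counts from 1 to 20), and halving all counts was therefore one alternative. No mitochondrial gene had counts. No pair of replicates matched within counting noise (122.4 to 284.6 chi-square units a gene).

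Counts were tested in R 4.3.3 with edgeR 4.0.16 (TMM, filterByExpr with a minimum count of 10, robust quasi-likelihood F-test), with p-values adjusted by Benjamini-Hochberg and called under 0.05. The standard error is the log2 fold change divided by the square root of F. RPKM is CPM per kilobase of annotated exon. The alternatives were DESeq2 1.42.0, voom in limma 3.58.1, other scalings and filters, halved counts, a test against 2-fold (glmTreat), a replicate block and leaving out each library. The labels do not say what replicate numbers share, but same-numbered colon and LPMC libraries deviated together from their group means (r = 0.241, 0.200 and 0.318 over genes), so the numbers may mark pairs. The primary test has no block. The blocked value is printed where it changes the call of a named gene or, for lists given by their counts, moves a count by over 1.5 times.

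The test was tried on simulated counts for this comparison (19297 genes), with 100 genes altered by 4-fold and 100 by 2-fold. At 4-fold, edgeR found 66 and DESeq2 89 of 100 altered genes. At 2-fold they found 11 and 27 of 100. False calls numbered 11 and 95. Far fewer genes differed in the simulation than the 33.1% called in the data. The adjusted p threshold is stricter when few genes differ, so the shares found do not carry over to the data.

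The 39 gene lists and the comparison were chosen with earlier results of these data known. Named genes are Gpr15l and Gpr15, the 12 genes per direction with the largest absolute log2 fold change minus 2 standard errors (called, no overlap, mean log2 CPM of at least 4 in the higher group, no predicted genes or variable segments), and, per list, defining markers, up to 4 members of lowest p and members called against the list's direction. Outside this rule, and chosen after their values were seen, are Ighm, S100a8, Il1b, Ifit1, Fos, Egr1, Muc3, Neat1, Ly6c1, Ly6c2, Gml2, Car1, Cyp2c55 and the genes of the other observations. The interferon promoters were also chosen then. Promoters come from the RefSeq table of GRCm38.p6. A gene family or antisense pair cannot be resolved without the strand setting. Some genes that the naming rule gives are not reported here.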

Additional observations from a re-analysis of the deposited data

How the results depend on the processing

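Main counts were 6393 genes called, 3228 higher in the LPMC-labelled libraries and 3165 higher in colon, with 268 list members called. They stayed within 1.5 times under DESeq2, voom, other scalings and filters, and halved counts. Against a 2-fold minimum change (glmTreat), 1576 genes were called, 899 and 677 by direction, with 140 list members. Leaving out 1 library gave 3436 to 6783 genes, 1783 to 3511 higher in the LPMC-labelled libraries, 1653 to 3272 higher in colon, and 188 to 307 list members. With the replicate number as a block, 6018 genes were called, 3190 and 2828 by direction; beyond the calls given in the report, the block changed no other call among the 150 genes followed through all settings. Blocked counts that moved less were 20 T cell, 12 homing receptor and 6 dendritic cell genes higher in the LPMC-labelled libraries and 11 interferon genes higher in colon. Among lists with few calls, the block gave 2 chemokine, 1 enteroendocrine and 1 tuft cell gene higher in colon. It also gave 1 monocyte and macrophage gene higher in the LPMC-labelled libraries, and it called no smooth muscle gene. Without TMM, 3670 and 2647 were called and the median log2 fold change of all genes was 0.09.

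Of 2246 values of these 150 genes under alternatives, 2078 kept direction and side of the threshold, 140 lost and 18 gained a call, and 10 changed sign, none of them called in the primary test. Cd79a was 2.04 under voom and 2.30 with the block, and Ighm 1.19 and 1.72. Leaving out 1 library moved Cd79a from -1.32 to 4.38 and Ighm from -1.42 to 3.48, each highest without colon replicate 1, Csf3r from -0.07 to 0.80 (negative without colon replicate 3 or LPMC replicate 1) and Des from -0.95 to 0.76 (positive without colon replicate 2 or LPMC replicate 3). The cause was not tested. The length adjustment was chosen after seeing the data. With 3 libraries per group and a common coefficient of biological variation of 0.393, 2-fold differences can be missed. How many were missed is not settled by the simulation. Genes near or under 1 CPM rest on few reads.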

Other observations

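LPMC replicate 1 held pancreatic transcripts, and posterior Hox genes varied between libraries. The genes below were chosen after their values were seen. Digestive enzyme genes of the exocrine pancreas were high in LPMC replicate 1. Ctrb1, which encodes chymotrypsinogen, was at 281 CPM there, at 0.616 and 0.114 CPM in the other LPMC-labelled libraries and at 0.141 CPM or less in colon. Cel, a bile salt lipase, was at 79.0 CPM in that library and at 0.537 CPM or less in all others, Prss2, a trypsinogen, at 110 CPM against 0.461 CPM or less, and Cpb1 at 75.0 CPM against 0.626 CPM or less. By edgeR the adjusted p of Cel was 0.0408, and 0.0907 with the replicate number as a block. Reg1 was at 61.7 CPM against 1.64 CPM or less.

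Hox genes of the most posterior gut differed within both groups. Hoxb13 was at 214, 356 and 462 CPM in colon and at 80.9, 128 and 4.12 CPM in the LPMC-labelled libraries (log2 fold change -2.28, SE 1.03, adjusted p = 0.134). Hoxd13 was at 2.41, 154 and 111 CPM in colon and at 24.9, 28.3 and 0.0381 CPM in the LPMC-labelled libraries (adjusted p = 0.355). Colon replicate 1 was low for Hoxd13, and LPMC replicate 3 was the lowest of all libraries for Hoxb13 and Hoxd13. Arc, an immediate early gene best known from neurons, was at 2.45, 5.23 and 6.67 CPM in colon and at 233, 272 and 266 CPM in the LPMC-labelled libraries.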
